A study of Homo sapiens with 15 samples.

Results

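The 3 sestrin genes SESN1, SESN2 and SESN3 were examined together with DDIT4, PRKAB1, PRKAB2, TSC1 and TSC2, 8 genes whose products restrain the growth kinase complex mTORC1 or sense the energy state upstream of it. They were taken by symbol from a table of 23368 genes, and all 8 were present and passed the filter on low values. The series measured RNA by sequencing in U2OS, an osteosarcoma cell line with wild-type p53, with 15 libraries in 6 groups. Nutlin, an antagonist of the ubiquitin ligase MDM2 that frees p53 from it, was given at 10 µM, and DMSO alone was the control. Asynchronous cells gave 3 DMSO and 3 Nutlin libraries, for which the sources used here give no exposure time to Nutlin. Non-released cells (2 DMSO, 2 Nutlin libraries) had gone through a double block with 2 mM thymidine, 16 h each with 8 h between, and were kept in it. S-phase cells (3 DMSO, 2 Nutlin libraries) were harvested 4 h after release from the same block. In both, Nutlin or DMSO was added 4 h before the release or the continued block, and Nutlin was kept after release. By the labels all groups are 1 cell line. A library whose markers stand apart is described below. Nothing in the labels says that replicates came from separate cultures, so the p-values reflect the spread between these libraries, which may be technical.

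mTORC1 drives protein synthesis and cell growth and blocks autophagy when amino acids, growth factors and energy suffice. Sestrins bind GATOR2, a complex that acts upstream of the Rag GTPases which bring mTORC1 to the lysosome, and SESN2 also senses leucine. SESN1 and SESN2 are known p53 targets, SESN2 also answers to ATF4 under amino acid and endoplasmic reticulum stress, and SESN3 is known as a FOXO target. DDIT4 (REDD1) is induced by hypoxia, glucocorticoids, ATF4 and p53 and acts through TSC1 and TSC2, which together switch off RHEB, the GTPase that activates mTORC1. PRKAB1 and PRKAB2 encode the β subunits of AMPK, the energy-sensing kinase that phosphorylates TSC2 and Raptor.

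Values are on the authors' variance-stabilised log2 scale, on which a gene without reads stands at 4.859. Differences are given in units of that scale, ± the standard error (SE), with n counting the libraries of each group. Normalised reads are linear values recovered from it. Libraries held 6.05 to 23.38 M reads assigned to genes (median 15.93). The Nutlin label was checked with CDKN1A (the p21 gene) and MDM2, both direct p53 targets. CDKN1A lay from 13.51 to 14.17 in the 7 Nutlin libraries and MDM2 from 14.55 to 14.84, against 11.45 to 12.53 and 12.44 to 13.10 in 7 of the 8 DMSO libraries. The library labelled DMSO asynchronous replicate 3 stood at 14.10 for CDKN1A and 14.77 for MDM2, among the Nutlin libraries. It also held the highest values of 7 of 8 epithelial and 5 of 5 luminal breast markers. Their summed normalised reads were 39937 there against 12586 to 17626 elsewhere for the epithelial markers, and 4104 against 27 to 71 for the luminal breast markers. Its 8 bone and mesenchymal markers summed to 45665 against 50417 to 60217, and its 5 blood markers to 9 against 2 to 15. The simple-epithelial keratin gene KRT19 had 7826.1 normalised reads in it, and 33.9 at most in any other library. DMSO S-phase replicate 2 was the shallowest library. Because every comparison shares 1 estimate of the spread per gene, results are from all 15 libraries, and values from 13 without these 2, or without the first of them alone, are set beside them where a call or a count of the 8 genes differed. By limma with all 15 libraries, neither check gene had an adjusted p under 0.05 in any single state. For S-phase, asynchronous and non-released cells in turn it was 0.0927, 0.305 and 0.597 (CDKN1A), and 0.0526, 0.135 and 0.22 (MDM2). Both passed in the mean of the states (0.00712 and 0.00131), and from 13 libraries in each state (6.73e-07 at most). A gene that did not pass in 1 state with all libraries is therefore not shown to be unchanged. High p53 targets were among the reasons for setting DMSO asynchronous replicate 3 apart, so p-values of p53 targets without it are no independent test. What the other RNA in that library adds to each result was not tested.

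The promoters of SESN1, SESN2, DDIT4 and SESN3 are shown as examples. In the mean of the 3 states the first 3 of these genes were higher with Nutlin and the last was not. Each is the RefSeq window of GRCh38.p14 from 250 bases before to 50 after an annotated start, written 5′ to 3′ on the gene's strand, with capitals marking a motif match. They are chr6:109008939-109009238 on the minus strand (the most downstream of 3 SESN1 windows, and the only 1 of them with a match), chr1:28259268-28259567 on the plus strand, chr10:72273674-72273973 on the plus strand and chr11:95232426-95232725 on the minus strand. PRKAB1 and PRKAB2 were higher with Nutlin too, and their windows, not shown, held no match to any motif searched.
SESN1: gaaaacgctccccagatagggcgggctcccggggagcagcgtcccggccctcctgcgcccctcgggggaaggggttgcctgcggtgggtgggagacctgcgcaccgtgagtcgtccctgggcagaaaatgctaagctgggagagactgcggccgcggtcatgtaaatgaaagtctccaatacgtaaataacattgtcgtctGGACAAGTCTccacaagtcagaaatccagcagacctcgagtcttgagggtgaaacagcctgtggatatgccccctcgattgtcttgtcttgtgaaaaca
SESN2: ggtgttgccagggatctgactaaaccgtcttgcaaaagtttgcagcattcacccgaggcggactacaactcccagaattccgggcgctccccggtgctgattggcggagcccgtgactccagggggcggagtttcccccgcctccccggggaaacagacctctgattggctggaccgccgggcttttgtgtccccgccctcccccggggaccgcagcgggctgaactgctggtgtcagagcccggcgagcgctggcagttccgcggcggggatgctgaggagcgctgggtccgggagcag
DDIT4: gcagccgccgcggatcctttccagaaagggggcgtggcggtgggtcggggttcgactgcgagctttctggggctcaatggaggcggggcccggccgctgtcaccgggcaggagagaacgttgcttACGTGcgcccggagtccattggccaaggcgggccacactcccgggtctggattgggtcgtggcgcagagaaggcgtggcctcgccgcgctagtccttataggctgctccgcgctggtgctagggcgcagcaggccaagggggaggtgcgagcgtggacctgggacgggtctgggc
SESN3: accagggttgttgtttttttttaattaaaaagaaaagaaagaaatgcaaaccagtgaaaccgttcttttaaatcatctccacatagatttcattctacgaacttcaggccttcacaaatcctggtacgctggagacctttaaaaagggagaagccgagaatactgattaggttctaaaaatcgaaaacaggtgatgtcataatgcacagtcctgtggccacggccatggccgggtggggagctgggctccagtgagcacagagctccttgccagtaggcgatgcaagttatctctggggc
Both strands of 11 windows for the 8 genes, and of 35116 such windows in all, were searched. A p53 half-site, the decamer that p53 binds as a pair, matched in 1 of the 11, the SESN1 window printed, at 49 to 40 bases before the start, and in 6.63% of all windows. A full p53 site, searched as a pair of such decamers with no mismatch allowed, matched in none of the 11 and in 0.0285% of all windows. With so rare a match, its absence from 11 windows says little. The hypoxia response core ACGTG matched in DDIT4, 125 to 121 bases before the start, in TSC2, and in 21.4% of all windows. The ATF4 composite element TGATGNAA matched in TSC2, where it overlaps the ACGTG match by its first 2 bases, and in 3.62% of all windows. The TATA box TATAAA matched in none of the 11 windows and in 11.5% of all. The SESN3 window had a GC content of 45.0% and 8 CG dinucleotides, while the other 10 windows had 58.0 to 75.0% GC against a median of 58.7% over all windows. A match is a description of these letters, not a measured site. A window without one says nothing of elements outside it or of sites with mismatches inside it.

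Compared per kb of the longest annotated transcript, DDIT4 had the highest mean of the 8 transcripts over the 15 libraries, 669.9 normalised reads per kb (330.8 to 939.1). SESN2 followed at 494.5, then PRKAB2 at 343.6, SESN1 at 335.7 and PRKAB1 at 267.1. TSC2 and TSC1, the 2 subunits of 1 complex, lay next to each other at 124.6 (up to 152.6) and 120.0 (95.6 to 143.4). SESN3 was lowest at 24.2, with a range of 9.2 to 42.0 that touched none of the others. The ranges of all other neighbours in this order overlapped except those of PRKAB1 (from 162.2) and TSC2. The order is that of means over unlike groups and differed by group. With Nutlin in asynchronous cells the mean of SESN2 (742.7) lay above that of DDIT4 (662.2). SESN1 lay below PRKAB1 in asynchronous and S-phase cells with DMSO (180.5 against 238.8, and 164.1 against 175.8 reads per kb). In non-released cells with Nutlin it lay above PRKAB2 (562.2 against 431.1). No member came near the limit of detection, the fewest reads being 87, for SESN3.

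**Figure D1:**
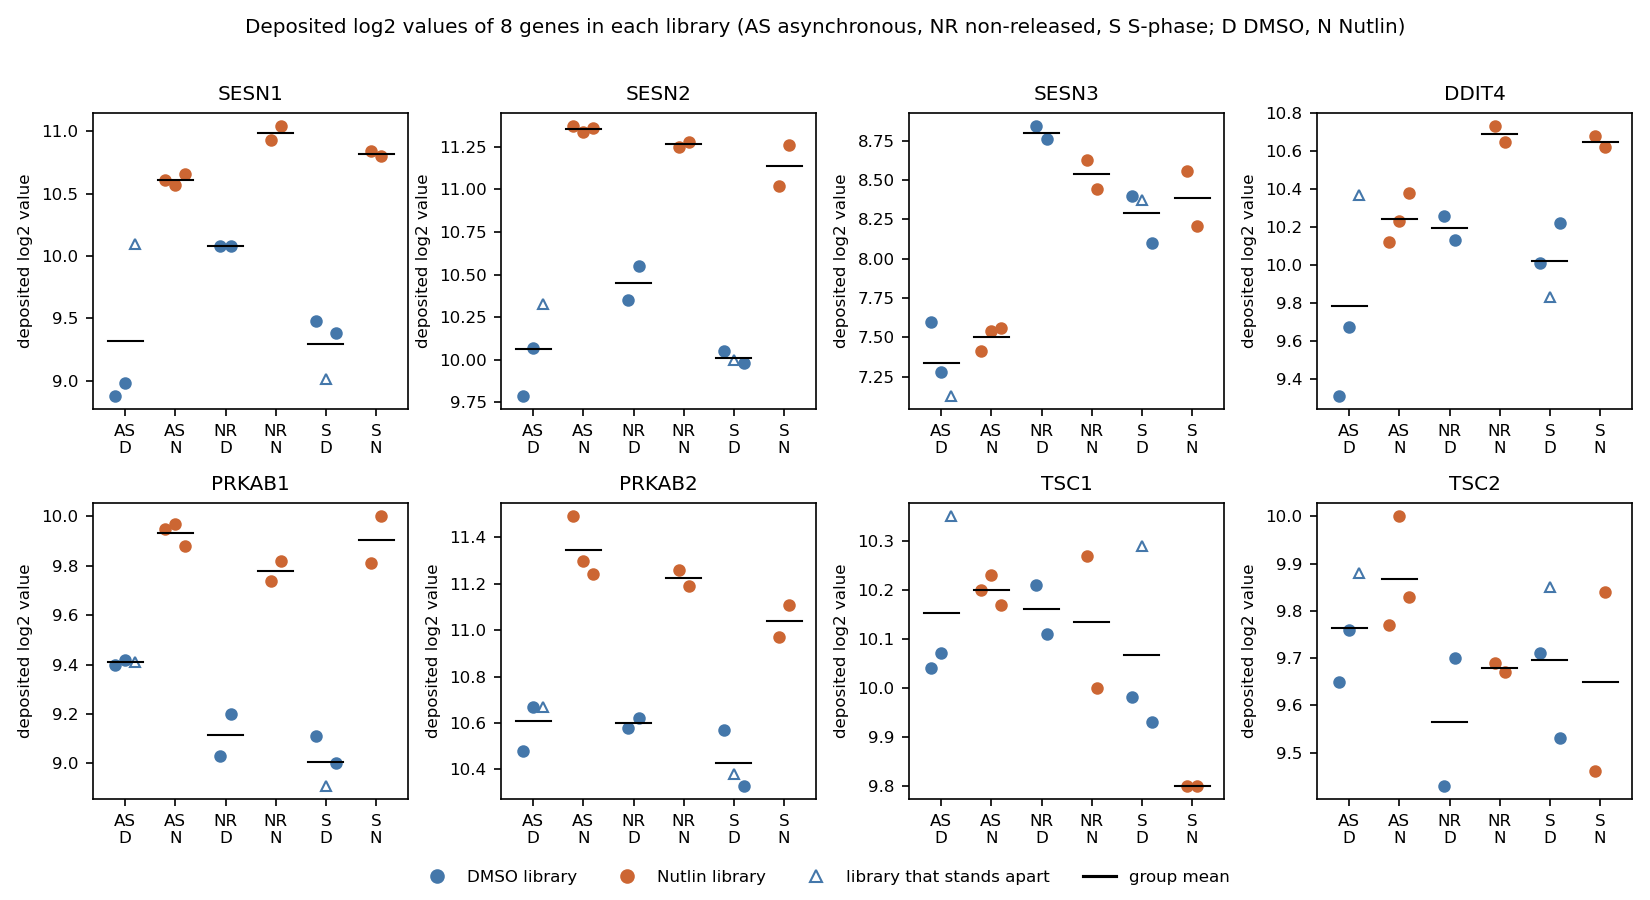
Level of each of the 8 genes in every library, on the deposited log2 scale (vertical axis), by group (horizontal axis), with DMSO and Nutlin libraries in different colours, open triangles for the 2 libraries that stand apart and a line at each group mean. SESN1, SESN2, PRKAB1 and PRKAB2 lie higher with Nutlin in each state, and TSC1 and TSC2 stay between 9.43 and 10.35. SESN3 lies higher in non-released and S-phase cells than in asynchronous cells with either treatment.

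Nutlin raised 5 of the 8 genes when its difference from DMSO was averaged over the 3 states: SESN1, SESN2, DDIT4, PRKAB1 and PRKAB2. None fell. By limma at an adjusted p under 0.05, 4.84% of the 14298 tested genes rose in that mean and 2.09% fell. From 13 libraries the same 5 genes rose, against 8.04% of all genes tested. By state, 4 of 8 rose in asynchronous cells, against 1.91% of all genes. In non-released cells 3 of 8 rose, against 0.874%, and in S-phase cells 4 of 8, against 1.84%. From 13 libraries the count was 5 of 8 in each state, against 3.78%, 2.81% and 3.4% of all genes. All Nutlin libraries lay above all DMSO libraries for 4 of 8 in asynchronous, 5 in non-released and 5 in S-phase cells, against 8.49%, 20% and 13.8% of all genes tested. The median difference of the 8 genes in the mean of the 3 states was 0.59, and that of all genes tested was -0.02. The 8 genes were chosen with earlier results of these data known, so these contrasts with all genes are descriptions, not tests. DMSO libraries differ between the states, so the 3 comparisons share no control library. They do share 1 estimate of the spread per gene, so their calls are not independent. In bulk RNA, fewer cells of a type and less RNA per cell cannot be told apart.

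SESN2 rose with Nutlin in every state. In asynchronous cells it lay at 9.79, 10.07 and 10.33 in the DMSO libraries and at 11.37, 11.34 and 11.36 in the Nutlin libraries. The groups did not overlap, with the Nutlin libraries close together and DMSO replicate 3 the highest of its group. The difference was 1.29 ± 0.11 (SE, n = 3 and 3, limma adjusted p = 1.89e-05), and 1.43 from 13 libraries (adjusted p = 1.93e-07). In non-released cells SESN2 lay at 10.35 and 10.55 with DMSO and at 11.25 and 11.28 with Nutlin. The difference there was 0.81 ± 0.14 (n = 2 and 2, limma adjusted p = 0.0108). In S-phase cells it lay at 10.05, 10.00 and 9.98 with DMSO and at 11.02 and 11.26 with Nutlin. That difference was 1.13 ± 0.13 (n = 3 and 2, limma adjusted p = 0.000285). Averaged over the states, SESN2 rose by 1.08 ± 0.07 (95% interval 0.92 to 1.24, limma adjusted p = 5.29e-07). Its mean rose from 1024 to 2565 normalised reads in asynchronous cells, from 1346 to 2405 in non-released cells and from 974 to 2212 in S-phase cells. Leaving out any of the 4 non-released libraries ended the call in that state. The adjusted p was then 0.195 and 0.0522 without DMSO non-released replicates 1 and 2, and 0.0969 and 0.145 without Nutlin non-released replicates 1 and 2.

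SESN1, like SESN2 a p53 target, had the largest difference of the 8 genes in each state, close to that of SESN2 in asynchronous cells. In asynchronous cells it lay at 8.88, 8.98 and 10.10 in the DMSO libraries and at 10.61, 10.57 and 10.66 with Nutlin. The groups did not overlap, but DMSO replicate 3 lay nearer to the Nutlin libraries than to the other DMSO libraries. The difference was 1.30 ± 0.23 (n = 3 and 3, limma adjusted p = 0.00711), and 1.69 from 13 libraries (adjusted p = 1.24e-09). In non-released cells SESN1 lay at 10.08 in both DMSO libraries and at 10.93 and 11.04 with Nutlin. That difference of 0.90 ± 0.29 did not pass with all libraries (n = 2 and 2, limma adjusted p = 0.267), although the groups did not overlap. Without DMSO asynchronous replicate 3, which enters through the shared spread, the SE was 0.13 and the adjusted p 0.00164, and from 13 libraries the adjusted p was 9.39e-06. In S-phase cells SESN1 lay at 9.48, 9.01 and 9.38 with DMSO and at 10.84 and 10.80 with Nutlin, with no overlap. The difference was 1.53 ± 0.26 (n = 3 and 2, limma adjusted p = 0.00582), and 1.39 from 13 libraries (adjusted p = 6.84e-08). It did not pass without Nutlin S-phase replicate 1 (adjusted p = 0.0702) or replicate 2 (adjusted p = 0.0766). Averaged over the states, SESN1 rose by 1.24 ± 0.15 (95% interval 0.92 to 1.57, limma adjusted p = 0.00011), and mean normalised reads in S-phase cells went from 576 to 1750.

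SESN3 did not follow the other sestrins. With DMSO and Nutlin it lay at 7.60, 7.28 and 7.13 and at 7.41, 7.54 and 7.56 in asynchronous cells, where the groups overlapped. In non-released cells it lay at 8.84 and 8.76 with DMSO and at 8.63 and 8.44 with Nutlin, both Nutlin libraries being lower, as for 25.7% of all tested genes there. In S-phase cells it lay at 8.40, 8.37 and 8.10 with DMSO and at 8.56 and 8.21 with Nutlin, again overlapping. The mean difference over the states was 0.00 ± 0.09 (95% interval -0.19 to 0.19, limma adjusted p = 0.992). None of the 3 states passed, with adjusted p between 0.749 and 0.999.

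DDIT4 lay at 9.31, 9.67 and 10.37 in the DMSO asynchronous libraries and at 10.12, 10.23 and 10.38 with Nutlin. DMSO replicate 3 lay inside the Nutlin range, and the groups overlapped. The difference of 0.46 ± 0.20 did not pass (n = 3 and 3, limma adjusted p = 0.346), while without DMSO asynchronous replicate 3 it was 0.75 (adjusted p = 0.00387). In non-released cells DDIT4 lay at 10.26 and 10.13 with DMSO and at 10.73 and 10.65 with Nutlin. The difference there was 0.50 ± 0.24 (n = 2 and 2, limma adjusted p = 0.783, and 0.0285 from 13 libraries). In S-phase cells it lay at 10.01, 9.83 and 10.22 with DMSO and at 10.68 and 10.62 with Nutlin. That difference was 0.63 ± 0.22 (n = 3 and 2, limma adjusted p = 0.213), with an adjusted p of 0.0143 without DMSO asynchronous replicate 3. The groups did not overlap in non-released or S-phase cells. Averaged over the 3 states DDIT4 rose by 0.53 ± 0.13 (95% interval 0.26 to 0.80, limma adjusted p = 0.02), and by 0.59 from 13 libraries (adjusted p = 1.59e-05). That call was lost without any 1 of 5 libraries. The adjusted p was 0.0735 without DMSO non-released replicate 2, 0.0657 and 0.0537 without Nutlin non-released replicates 1 and 2, and 0.0598 and 0.0517 without Nutlin S-phase replicates 1 and 2.

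Both AMPK β subunit genes rose with Nutlin in every state. PRKAB1 lay at 9.40, 9.42 and 9.41 in the DMSO asynchronous libraries and at 9.95, 9.97 and 9.88 with Nutlin. DMSO asynchronous replicate 3 did not stand out for this gene. The difference was 0.52 ± 0.08 (n = 3 and 3, limma adjusted p = 0.00284). In non-released cells PRKAB1 lay at 9.03 and 9.20 with DMSO and at 9.74 and 9.82 with Nutlin, a difference of 0.67 ± 0.10 (n = 2 and 2, limma adjusted p = 0.00525). In S-phase cells it lay at 9.11, 8.91 and 9.00 with DMSO and at 9.81 and 10.00 with Nutlin, a difference of 0.90 ± 0.09 (n = 3 and 2, limma adjusted p = 0.000186). The groups did not overlap in any state. The call in non-released cells was lost without DMSO non-released replicate 1 (adjusted p = 0.115), Nutlin non-released replicate 1 (adjusted p = 0.0506) or Nutlin non-released replicate 2 (adjusted p = 0.113).

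PRKAB2 lay at 10.48, 10.67 and 10.67 with DMSO and at 11.49, 11.30 and 11.24 with Nutlin in asynchronous cells, a difference of 0.74 ± 0.09 (n = 3 and 3, limma adjusted p = 0.000353). In non-released cells it lay at 10.58 and 10.62 with DMSO and at 11.26 and 11.19 with Nutlin, a difference of 0.62 ± 0.11 (n = 2 and 2, limma adjusted p = 0.0154). In S-phase cells it lay at 10.57, 10.38 and 10.33 with DMSO and at 10.97 and 11.11 with Nutlin, a difference of 0.61 ± 0.10 (n = 3 and 2, limma adjusted p = 0.00468). No Nutlin library overlapped the DMSO libraries of its state. Over the 3 states PRKAB1 rose by 0.70 ± 0.05 (limma adjusted p = 1.88e-06) and PRKAB2 by 0.66 ± 0.06 (limma adjusted p = 6.35e-06), with 95% intervals of 0.58 to 0.81 and 0.53 to 0.79. The non-released call of PRKAB2 was lost without DMSO non-released replicate 1 or 2 (adjusted p = 0.184 and 0.14) and without Nutlin non-released replicate 1 or 2 (adjusted p = 0.171 and 0.131). Its S-phase call was lost without Nutlin S-phase replicate 2 (adjusted p = 0.097).

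TSC1 and TSC2, through which DDIT4 and AMPK act, did not pass in any Nutlin comparison. TSC1 lay at 10.04, 10.07 and 10.35 with DMSO and at 10.20, 10.23 and 10.17 with Nutlin in asynchronous cells. In non-released cells it lay at 10.21 and 10.11 with DMSO and at 10.27 and 10.00 with Nutlin. In S-phase cells the Nutlin libraries, both at 9.80, lay below the DMSO libraries at 9.98, 10.29 and 9.93. That was the only state in which the TSC1 groups did not overlap, with a difference of -0.27 ± 0.12 (n = 3 and 2, limma adjusted p = 0.394). Over all tested genes, 12% had every Nutlin library below every DMSO library in that state. TSC2 lay at 9.65, 9.76 and 9.88 with DMSO and at 9.77, 10.00 and 9.83 with Nutlin in asynchronous cells. In non-released cells it lay at 9.43 and 9.70 with DMSO and at 9.69 and 9.67 with Nutlin. In S-phase cells it lay at 9.71, 9.85 and 9.53 with DMSO and at 9.46 and 9.84 with Nutlin. Its groups overlapped in each state. The mean difference over the states was -0.08 ± 0.07 for TSC1 (95% interval -0.24 to 0.07, limma adjusted p = 0.6). For TSC2 it was 0.06 ± 0.08 (95% interval -0.11 to 0.22, limma adjusted p = 0.758). Exons of TSC2 overlap exons of PKD1 and of NTHL1 on the opposite strand, so with no strand given reads could be shared and the TSC2 values are uncertain. DDIT4, PRKAB1, SESN1 and SESN3 overlap antisense genes in part.

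**Figure D2:**
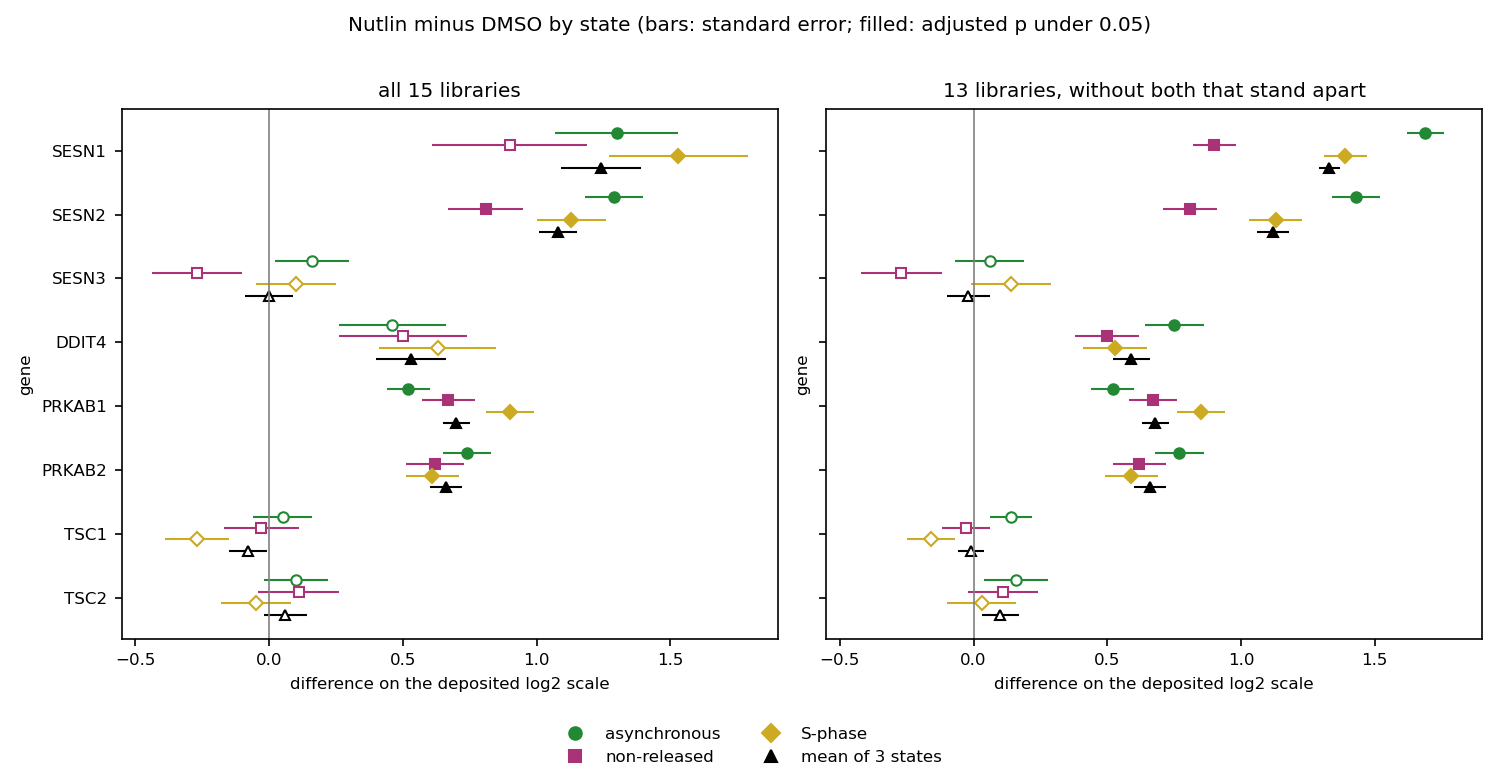
Difference between Nutlin and DMSO for each of the 8 genes (vertical axis) on the deposited log2 scale (horizontal axis), for the 3 states and their mean, from all 15 libraries (left) and from 13 (right); bars are standard errors and filled symbols have an adjusted p under 0.05. With all libraries SESN1 and SESN2 lie farthest to the right in each state, the AMPK β subunits and DDIT4 lie between 0.46 and 0.90, and SESN3, TSC1 and TSC2 between -0.27 and 0.16.

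Whether the Nutlin response differed between states was tested for each pair of states. With all 15 libraries 0 of the 8 genes, and 0% of all genes, passed by limma in any of the 3 tests, and voom also called 0 genes. At an unadjusted p under 0.05, 1 member stood out between non-released and asynchronous cells, SESN2 at -0.48 ± 0.18, with 155 of all 14298 genes. Between S-phase and asynchronous cells it was PRKAB1 at 0.37 ± 0.13, with 787 genes, and between S-phase and non-released cells none, with 321 genes. From 13 libraries the SESN1 response was smaller in non-released than in asynchronous cells, by -0.79 ± 0.10 (limma adjusted p = 0.011), when 0.0211% of all genes passed. The same difference was -0.40 ± 0.37 from all 15 libraries (adjusted p = 1) and -0.79 without DMSO asynchronous replicate 3 alone (adjusted p = 0.74).

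With DMSO, non-released cells differed from asynchronous cells in 4 of the 8 genes, 3 higher and 1 lower, where 16.9% of all genes were higher and 17% lower. From 13 libraries 4 of the 8 were higher and 1 lower, where 3346 of all genes were higher and 3466 lower. The gene added was DDIT4, at 0.70 (limma adjusted p = 0.000239). With Nutlin 1 of the 8 passed, SESN3, while SESN1 differed by 0.37 (limma adjusted p = 0.299) and SESN2 by -0.09 (adjusted p = 0.616). From 13 libraries SESN1 and DDIT4 passed there as well, at 0.37 and 0.45 (adjusted p = 0.000611 and 0.003). Of all 14193 genes tested, 3596 were then higher and 3523 lower. SESN3 had the largest difference, 1.46 ± 0.15 (n = 2 and 3, limma adjusted p = 2.32e-05, and 1.36 from 13 libraries). Its mean was 390 normalised reads in non-released and 111 in asynchronous cells with DMSO. The same step with Nutlin was 1.03 ± 0.15 (n = 2 and 3, limma adjusted p = 0.000253), where 17.3% of all genes were higher. SESN3 remained higher 4 h after release, by 0.95 ± 0.14 with DMSO (n = 3 and 3, limma adjusted p = 0.000384) and 0.88 ± 0.15 with Nutlin (n = 2 and 3, limma adjusted p = 0.00133). No non-released library overlapped the asynchronous libraries of its treatment for SESN3, which held for 28.7% of all genes with DMSO and 35.5% with Nutlin in that direction.

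SESN1 was higher in non-released than asynchronous cells with DMSO by 0.76 ± 0.26 (n = 2 and 3, limma adjusted p = 0.0373), but the groups overlapped because DMSO asynchronous replicate 3 at 10.10 lay above both non-released libraries at 10.08. From 13 libraries the difference was 1.15 (adjusted p = 2e-07). The call with all libraries was lost without DMSO asynchronous replicate 1 or 2 (0.54 and 0.60, adjusted p = 0.127 and 0.128), DMSO non-released replicate 1 or 2 (adjusted p = 0.141 and 0.148) or Nutlin asynchronous replicate 2 (adjusted p = 0.0504). It was also lost with no filter on low values (adjusted p = 0.0556) and when only the compared groups were fitted (adjusted p = 0.146). SESN2 was higher by 0.39 ± 0.13 (n = 2 and 3, limma adjusted p = 0.0308), and by 0.52 from 13 libraries (adjusted p = 0.000812). That call was lost without DMSO asynchronous replicate 1 (0.25, adjusted p = 0.0995) or replicate 2 (adjusted p = 0.0638), and without DMSO non-released replicate 1 (adjusted p = 0.0527) or replicate 2 (adjusted p = 0.245), and with the compared groups alone (adjusted p = 0.127). PRKAB1 went the other way, lower by -0.30 ± 0.09 (n = 2 and 3, limma adjusted p = 0.0267), a call lost without DMSO asynchronous replicate 2 (adjusted p = 0.0625) or DMSO non-released replicate 1 (adjusted p = 0.237), and with the compared groups alone (adjusted p = 0.0774). DDIT4 differed by 0.41 ± 0.22 (n = 2 and 3, limma adjusted p = 0.166), and by 0.70 without DMSO asynchronous replicate 3 (adjusted p = 0.00179). With the replicate number as a block it passed, at 0.56 (adjusted p = 0.0186).

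In S-phase against asynchronous cells with DMSO, 2 of the 8 genes passed, SESN3 higher and PRKAB1 lower, where 14.1% of all genes were higher and 13.6% lower. PRKAB1 was lower by -0.40 ± 0.08 (n = 3 and 3, limma adjusted p = 0.00394), a call lost with the compared groups alone (adjusted p = 0.0606). SESN1 differed by -0.03 ± 0.23 (n = 3 and 3, limma adjusted p = 0.943), but was higher by 0.36 (adjusted p = 0.0306) without DMSO asynchronous replicate 3 and by 0.51 (adjusted p = 0.000345) from 13 libraries. DDIT4 differed by 0.24 ± 0.20 (limma adjusted p = 0.382), and by 0.53 (adjusted p = 0.00783) without DMSO asynchronous replicate 3. In this comparison 2228 of all genes were higher and 2298 lower from 13 libraries. With Nutlin, 3 of 8 passed in S-phase against asynchronous cells, where 13.4% of all genes were higher and 10.6% lower. These were SESN3, TSC1 at -0.40 ± 0.12 (n = 2 and 3, limma adjusted p = 0.0319) and PRKAB2 at -0.30 ± 0.10 (n = 2 and 3, limma adjusted p = 0.0469). From 13 libraries SESN1 and DDIT4 passed too, at 0.20 and 0.41 (adjusted p = 0.0322 and 0.00764). Of all 14193 genes tested, 3094 were then higher and 2753 lower. The TSC1 call was lost without any 1 of the 5 libraries compared: adjusted p = 0.0687, 0.0878 and 0.0643 without Nutlin asynchronous replicates 1 to 3, and 0.129 and 0.117 without Nutlin S-phase replicates 1 and 2. The PRKAB2 call was lost in 11 of 23 alternatives. Among these was leaving out any 1 of the same libraries except Nutlin asynchronous replicate 3. The adjusted p was 0.156 and 0.0855 without Nutlin asynchronous replicates 1 and 2, and 0.269 and 0.0742 without Nutlin S-phase replicates 1 and 2. It was also lost without any 1 of DMSO asynchronous replicate 2 (0.0568) and the 4 non-released libraries (0.0635 to 0.0644), which enter only through the shared spread.

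Between S-phase and non-released cells 0 of the 8 genes passed by limma with either treatment, where 6.99% of all genes passed with DMSO and 2.43% with Nutlin. With DMSO, 3 members had an unadjusted p under 0.05, all lower in S-phase: SESN1 by -0.79 ± 0.26 (adjusted p = 0.0895), SESN2 by -0.44 ± 0.13 (adjusted p = 0.054) and SESN3 by -0.51 ± 0.15 (adjusted p = 0.0603). All 3 passed from 13 libraries, at -0.65, -0.44 and -0.55 (adjusted p = 9.16e-05, 0.0115 and 0.0226), where 6.34% of all genes were lower. Without DMSO asynchronous replicate 3 alone they passed as well (adjusted p = 0.000905, 0.0138 and 0.0355), and SESN2 and SESN3 passed without DMSO asynchronous replicate 1 (adjusted p = 0.0177 and 0.0349). By voom SESN2 and SESN3 passed (adjusted p = 0.048 and 0.0302). With Nutlin only TSC1 had an unadjusted p under 0.05, at -0.33 ± 0.14 (adjusted p = 0.238, and 0.0262 from 13 libraries), and voom called none of the 8. From 13 libraries 640 of all genes were lower there.

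**Figure D3:**
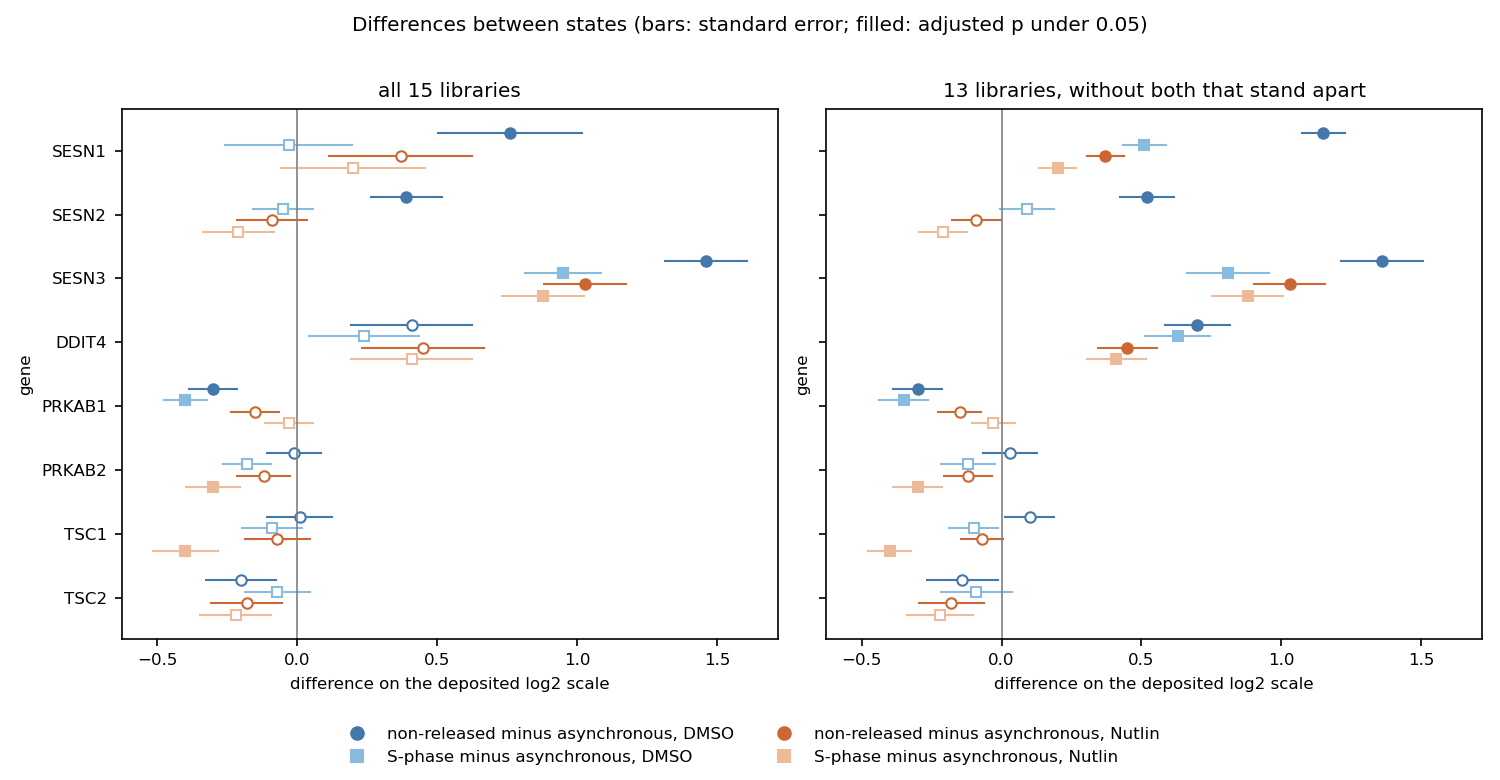
Difference between blocked or released and asynchronous cells for each of the 8 genes (vertical axis) on the deposited log2 scale (horizontal axis), with DMSO and with Nutlin, from all 15 libraries (left) and from 13 (right); bars are standard errors and filled symbols have an adjusted p under 0.05. SESN3 lies between 0.88 and 1.46 in each comparison with all libraries, and SESN1 and DDIT4 with DMSO lie farther to the right from 13 libraries.

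The order of the 6 groups therefore differed by gene. For SESN1 the means ran from 10.99 (Nutlin non-released) over 10.82 (Nutlin S-phase) and 10.62 (Nutlin asynchronous) to 10.08 (DMSO non-released), 9.32 (DMSO asynchronous) and 9.29 (DMSO S-phase). The 3 Nutlin groups did not pass a test against each other with all libraries, and the last 2 groups overlapped. For SESN2 the order was Nutlin asynchronous (11.36), non-released (11.27) and S-phase (11.14), then DMSO non-released (10.45), asynchronous (10.06) and S-phase (10.01). Its Nutlin groups did not pass against each other either. PRKAB1 had its 3 Nutlin groups at 9.93, 9.90 and 9.78, above DMSO asynchronous (9.41), non-released (9.11) and S-phase (9.01). SESN3 was ordered by state, with both non-released groups (8.80 and 8.53) highest, both S-phase groups next (8.39 with Nutlin, 8.29 with DMSO) and both asynchronous groups lowest (7.50 and 7.34). The libraries of neighbouring Nutlin non-released and S-phase groups overlapped for SESN3.

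The other genes of the pathway, from lists of the mTOR network, are counted here in the mean Nutlin difference over the 3 states, where 4.84% of all genes were higher and 2.09% lower. None of the 5 tested genes of the mTORC1 complex passed by limma, and none had an unadjusted p under 0.05 or passed by voom. The same held for the 3 tested genes of the TSC complex and RHEB list and the 12 mTORC1 outputs. Of 24 nutrient-sensing genes 1 rose, C12orf66, a subunit of KICSTOR (0.24 ± 0.06, adjusted p = 0.0295). Of 10 AMPK subunits and activators 1 fell, the upstream kinase gene CAMKK2 (-0.31 ± 0.08, adjusted p = 0.0223). Of 18 genes of PI3K, AKT and mTORC2 1 rose, PHLDA3, a p53 target whose product competes with AKT for membrane lipids (0.69 ± 0.08, adjusted p = 5.26e-05). PHLDA3 also rose in asynchronous (0.89 ± 0.12, adjusted p = 0.000639) and S-phase cells (0.75 ± 0.13, adjusted p = 0.00786). Of 17 ATF4 targets 1 rose, ATF3, a stress-induced transcription factor that is also a p53 target (1.14 ± 0.09, adjusted p = 1.87e-06). ATF3 rose in each state, by 1.16 in asynchronous, 1.07 in non-released and 1.18 in S-phase cells (adjusted p = 0.000224, 0.00584 and 0.000748). Of 15 HIF targets 1 rose, NDRG1 (0.21 ± 0.06, adjusted p = 0.0445). None of the 8 FOXO factors and targets passed, with 1 at an unadjusted p under 0.05 and none by voom. The medians of these lists lay between -0.06 and 0.06, beside -0.02 for all genes tested. More genes passed from 13 libraries, as over all genes (1141 higher and 990 lower, against 692 and 299 from 15). The FOXO, ATF4, HIF and nutrient-sensing lists then held 2 higher genes each. Of the AMPK genes 2 were higher and 1 lower, of the PI3K, AKT and mTORC2 genes 3 higher and 1 lower, and of the mTORC1 outputs 1 lower.

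Between non-released and asynchronous cells with DMSO, where 33.9% of all genes passed, genes of the same lists were among both the higher and the lower ones. RPTOR, which encodes the mTORC1 subunit Raptor, was lower by -0.75 ± 0.15 (adjusted p = 0.00188), the 1 of the 5 genes of that complex to pass by limma from 15 libraries, where voom called 2. From 13 libraries 1 of the 5 was higher and 3 lower. Of the 24 nutrient-sensing genes 4 were higher and 4 lower, led by the GATOR2 subunit SEH1L (-0.64 ± 0.12, adjusted p = 0.00112) and, among those higher, the Rag GTPase RRAGD (0.50 ± 0.11, adjusted p = 0.00295). Of 17 ATF4 targets 3 were higher and 5 lower, the lower ones including the amino acid transporter genes SLC7A5 (-0.99 ± 0.15, adjusted p = 0.000321) and SLC3A2 (-0.71 ± 0.11, adjusted p = 0.00036) and the pseudokinase gene TRIB3 (-0.76 ± 0.12, adjusted p = 0.000332). PHGDH, of serine synthesis, was higher by 0.64 ± 0.10 (adjusted p = 0.000293). Of 15 HIF targets 1 was higher and 4 lower, led by the hexokinase gene HK2 (-1.42 ± 0.15, adjusted p = 2.62e-05). Of the 8 FOXO factors and targets 3 were higher and 2 lower, with CCNG2, a cyclin gene known as a FOXO target, higher by 1.16 ± 0.25 (adjusted p = 0.00289) and FOXO3 itself lower by -0.58 ± 0.14 (adjusted p = 0.00709). In S-phase against asynchronous cells with DMSO, 3 of these 8 were higher and 2 lower, where 14.1% of all genes were higher and 13.6% lower. FOXO1 was among those higher there (1.21 ± 0.24, adjusted p = 0.00327). In non-released against asynchronous cells with DMSO, 2 of 12 mTORC1 outputs were higher and 3 lower. Among them were TFEB, which drives lysosome genes (0.48 ± 0.11, adjusted p = 0.00585), and the cap-binding factor gene EIF4E (-0.79 ± 0.16, adjusted p = 0.00209). Of 18 genes of PI3K, AKT and mTORC2 3 were lower, led by AKT2 (-0.43 ± 0.08, adjusted p = 0.00117). Of 10 AMPK subunits and activators 2 were higher, STRADA (0.39 ± 0.12, adjusted p = 0.0266) and the catalytic subunit gene PRKAA2 (0.37 ± 0.13, adjusted p = 0.0355). TBC1D7, the third subunit of the TSC complex, was higher by 0.43 ± 0.13 (adjusted p = 0.0184). From 13 libraries, where 3346 of all genes were higher and 3466 lower, 5 nutrient-sensing genes were higher and 6 lower, 4 and 8 ATF4 targets, 3 and 5 HIF targets, and 5 and 2 FOXO genes. The mTORC1 outputs then held 4 higher and 5 lower genes, the PI3K, AKT and mTORC2 list 3 and 3, and the AMPK list 2 and 1.

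**Figure D4:**
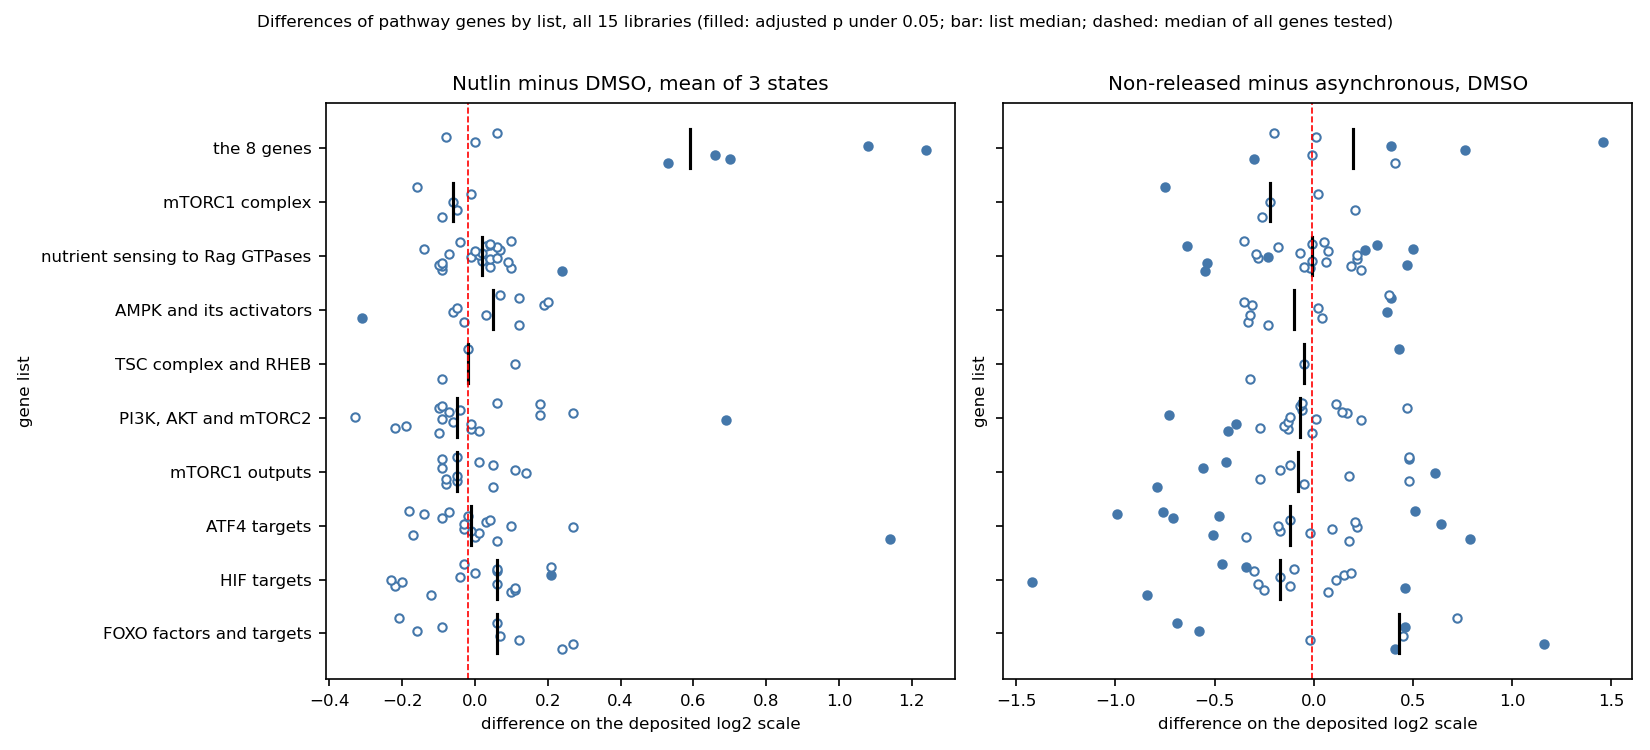
Differences on the deposited log2 scale (horizontal axes) of each tested gene (points) by gene list (vertical axis), for Nutlin minus DMSO as a mean of the 3 states (left) and non-released minus asynchronous cells with DMSO (right), from 15 libraries; bars are list medians, the dashed line is the median of all genes tested, and filled points have an adjusted p under 0.05. On the left the 8 genes described here have a median of 0.59 and the medians of the other lists lie between -0.06 and 0.06. On the right the lists spread to both sides. The 8 genes and the lists were chosen with earlier results of these data known.

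For each of the 8 genes the 3 other genes with the most similar profile were sought, by the smallest root mean square (RMS) difference of centred log2 values over the 15 libraries, which share groups and depth. SESN2 lay nearest to EDA2R, a receptor gene and p53 target (RMS 0.11), POLH, the translesion polymerase gene (0.13), and RNF19B (0.14). SESN1 lay nearest to PPM1D, the phosphatase gene that feeds back on p53 (0.17), ANKRA2 (0.22) and CMBL (0.23). Both PRKAB1 and PRKAB2 had BAX, the apoptosis effector gene, as nearest neighbour (0.10 each), followed by BLCAP (0.14 and 0.12). DDIT4 lay nearest to NADSYN1 (0.16), TM7SF3 (0.17) and PGPEP1 (0.18), against a standard deviation of its own of 0.38. SESN3 lay nearest to NDRG2, ATL1 and PRSS35 (0.15, 0.15 and 0.16). From 13 libraries PPM1D, EDA2R and BAX stayed the nearest for SESN1, SESN2 and both AMPK β subunits, while the nearest to DDIT4 was TM7SF3 (0.14). TSC1 and TSC2 varied by standard deviations of only 0.16 and 0.15 and lay nearest to ZBTB39 (0.07) and ZBTB49 (0.08).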

How the data were processed

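The authors deposited variance-stabilised counts, on a log2 scale, for 23368 genes. Tools named without roles in the submitters' processing notes are DESeq2 1.10.1, HTSeq, TopHat 0.9 and CASAVA 1.8.2, with the build hg19; annotation and strand are not given in the sources used here. Per the labels' protocols, input was 1000 ng of RNA and reads were single, of 50 nt. The labels give the Nutlin dose without its unit prefix, taken as micromolar. Groups came from library titles.

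The transformation was inverted to normalised reads; within 0.05 read, all values were whole in 14 libraries and 99.61% in DMSO S-phase replicate 3 for genes of up to 1000 reads. The limit that 0 reads allows (3 reads) was 0.128 to 0.496 per M reads and covers counting error only. Replicates differed beyond sampling noise (chi-square per degree of freedom 3.25 to 71.25). Transcript lengths are from GENCODE v29.

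limma 3.58.1 (R 4.3.3) tested differences: 1 mean per group over 15 libraries, trended eBayes, two-sided, Benjamini-Hochberg adjustment over 14298 genes with at least 2 libraries 1 unit above the lowest value, adjusted p under 0.05, in 13 comparisons. The code was tested on simulated data. Members and gene lists were chosen with earlier results of these data known. Of each list, up to 4 genes that passed with the smallest adjusted p were eligible to be named. Alternatives were other filters, compared groups alone, a replicate block, voom, median centring, no trend, and leaving out libraries.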

Additional observations from a re-analysis of the deposited data

Results flagged for a closer look

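The SESN1 response to Nutlin was flagged because it differed between states in a test of the difference itself: from the 13 libraries it was -0.79 in non-released minus asynchronous cells (limma adjusted p = 0.011). From all 15 libraries it was -0.40 (adjusted p = 1), and it did not pass when DMSO asynchronous replicate 3 alone was left out (-0.79, adjusted p = 0.74). High p53 targets, of which SESN1 is one, were among the reasons for setting that library apart, so the value from 13 libraries is no independent test.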

How the results depend on the processing

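The calls of SESN2, PRKAB1 and PRKAB2 in asynchronous cells, of PRKAB1 and SESN2 in S-phase cells and of SESN1, SESN2, PRKAB1 and PRKAB2 in the mean of the 3 states held in all 23 alternatives, as did SESN3 between non-released and asynchronous cells. Fitting only the groups compared changed the number of the 8 genes called from 3 to 5 for Nutlin in non-released cells, from 4 to 1 for non-released (SESN1, SESN2 and PRKAB1 lost) and from 2 to 1 for S-phase (PRKAB1 lost, adjusted p = 0.0606) against asynchronous cells with DMSO, and from 1 to 3 for non-released against asynchronous cells with Nutlin. It ended the calls of SESN1 in asynchronous cells (adjusted p = 0.0862) and of PRKAB2 in S-phase cells (adjusted p = 0.128). From the 13 libraries the count for Nutlin became 5 in each state, and that for the difference of responses, non-released minus asynchronous, became 1. Against asynchronous cells the counts became 5 (non-released) and 4 (S-phase) with DMSO, and 3 and 5 with Nutlin. Of all 14193 genes tested from these libraries, 6812 and 4526 passed with DMSO, and 7119 and 5847 with Nutlin. For S-phase against non-released cells the counts became 3 with DMSO and 1 with Nutlin, where 2032 and 1539 of all genes passed. SESN1 in S-phase against asynchronous cells with DMSO, -0.03 with all libraries, reversed to 0.51 from 13 libraries and to 0.36 without DMSO asynchronous replicate 3, and ran from -0.25 (without DMSO asynchronous replicate 1) to 0.36 when 1 library was left out. For S-phase against non-released cells with DMSO, where 0 passed, the stricter filter and median centring gave 1 and voom 2. Leaving out 1 library gave 4 to 5 members called for Nutlin in asynchronous, 0 to 4 in non-released and 2 to 5 in S-phase cells, and 4 to 5 in the mean of the states. It gave 0 to 0 in the 3 differences of responses, 1 to 5, 2 to 4 and 0 to 3 between states with DMSO, and 1 to 3, 1 to 4 and 0 to 0 with Nutlin. Deviations of same-numbered libraries correlated at -0.284 to 0.481 over 33 pairs (median 0.149, 20 over 0.1), those of different-numbered ones at a median of -0.058 over 60 pairs (11 over 0.1). In groups of 2 libraries the deviations mirror each other, so values repeat and the pairs are not separate observations. Same-numbered DMSO and Nutlin libraries of the same state all correlated positively, at 0.074 to 0.351. As not every same-numbered pair was over 0.1, the main fit did not take the numbers as pairing. Whether same-numbered libraries shared a batch was not tested. With the replicate number as a block, 2 members passed in S-phase against non-released cells with DMSO (SESN1 and SESN2, adjusted p = 0.0256 and 0.0303). Over all genes 1347 passed there with the block. DDIT4 then passed in non-released against asynchronous cells with DMSO (0.56, adjusted p = 0.0186; 5 members for 4) and Nutlin (0.60, adjusted p = 0.0132; 2 for 1), in S-phase against asynchronous cells with Nutlin (0.56, adjusted p = 0.0258) and with Nutlin in S-phase cells (0.78, adjusted p = 0.0284; 5 for 4); the TSC1 call in S-phase against asynchronous cells with Nutlin was lost (adjusted p = 0.0526). With the block, 4985 and 5168 of all genes passed for non-released against asynchronous cells with DMSO and Nutlin. For S-phase against asynchronous cells with Nutlin 3654 passed, and for Nutlin against DMSO in S-phase cells 324. Over all genes, calls for Nutlin against DMSO in the main fit numbered 351 in asynchronous, 131 in non-released and 286 in S-phase cells, and 202, 637 and 99 from the compared groups alone. They numbered 888, 459 and 564 from 13 libraries, and 171 to 525, 22 to 274 and 88 to 466 when 1 library was left out. Differences of low-read genes are compressed on this scale: SESN3 in non-released against asynchronous cells with DMSO was 1.46, and 1.84 with voom.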
